A study of Mus musculus with 36 samples.

Results

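The mitochondrial ribosomal proteins were followed through heart development and adult life in the mouse. Members were taken by name: every probe set whose gene symbol begins with Mrpl or Mrps and a number was collected, and each gene was read from the probe set with the highest mean over the 36 arrays. This gave 76 genes, 47 named Mrpl and 29 named Mrps, after the large and the small subunit, out of 20701 genes with a gene ID on the array, and they are covered by 152 of its 45101 probe sets. All 76 had a stage mean above 5 on the log2 scale in at least 1 stage, so no member was lost to a filter on low values. Mrpl11, Mrpl15, Mrpl28 and Mrpl48 were read from probe sets with the suffix x, and Mrpl9, Mrpl19, Mrpl37, Mrpl38, Mrps12 and Mrps24 from probe sets with the suffix s, both of which may match further transcripts, so their values are uncertain to that extent.

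The arrays held whole heart RNA of OF1 mice, an outbred stock, without genetic change or treatment, at 12 stages with 3 arrays each. The 10 embryonic stages ran daily from E10.5 to E19.5, the young adults were 10 weeks old, and the old adults were 14 months old by the text deposited with the data but younger by the study's methods. At E10.5 and E11.5 all 3 arrays came from hearts of both sexes, here called mixed1 to mixed3, and from E12.5 onward a stage had 1 female, 1 male and 1 mixed array, given in that order below. Differences between hearts and between sex labels therefore cannot be told apart within a stage. The measured quantity is log2 intensity after robust multi-array averaging, so a difference of 1 is a doubling, and levels of different probe sets cannot be set against each other.

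Mitochondria make a small set of hydrophobic respiratory chain subunits on ribosomes of their own, the mitoribosomes, whose ribosomal RNAs come from mitochondrial DNA and whose proteins are encoded in the nucleus, translated in the cytosol and imported. Part of this protein set descends from bacterial ribosomal proteins, and the rest is particular to mitochondria. The heart depends on oxidative phosphorylation, and inherited defects of several of these proteins cause cardiomyopathy or combined respiratory chain deficiency.

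The following start regions are shown because the results turn on their genes: the pair Mrps11 and Mrpl46, which are transcribed away from each other, Mrps12 with the largest postnatal rise, the paralogues Mrps18a, Mrps18b and Mrps18c, and Mrps22 with the largest fall from E10.5 to the young adult. They come from the RefSeq annotation of GRCm38.p6 and run 5′ to 3′ on the strand of the gene named first, ending at the base before its start. For head-to-head genes whose starts lie within 250 bases the stretch between both starts is printed, and otherwise 250 bases. The start of Mrps18b lies 756 bases from that of Ppp1r10 on the opposite strand, farther than the stretch shown. Capitals mark the letters of the motifs GCATGCGC (NRF1) and CCGGAAGT (ETS family) or of their reverse complements. Mrps11 (chr7:78783131-78792988, plus strand) and Mrpl46 (chr7:78775341-78783089, minus strand) are parted by chr7:78783090-78783130. Mrps12 (chr7:28739641-28741821, minus strand) faces Sars2, the gene of the mitochondrial seryl-tRNA synthetase, across chr7:28741822-28741967. Mrps18c (chr5:100798759-100804467, plus strand) faces Helq, a DNA helicase gene, across chr5:100798601-100798758. The stretch before Mrps18b (chr17:35910380-35916440, minus strand) is chr17:35916441-35916690, that before Mrps18a (chr17:46111004-46128908, plus strand) is chr17:46110754-46111003, and that before Mrps22 (chr9:98588730-98601679, minus strand) is chr9:98601680-98601929.
Mrps11 and Mrpl46: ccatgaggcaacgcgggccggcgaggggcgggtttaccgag
Mrps12 and Sars2: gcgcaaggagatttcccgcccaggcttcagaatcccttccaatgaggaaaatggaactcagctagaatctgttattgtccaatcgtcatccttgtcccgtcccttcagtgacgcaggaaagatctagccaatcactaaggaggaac
Mrps18c and Helq: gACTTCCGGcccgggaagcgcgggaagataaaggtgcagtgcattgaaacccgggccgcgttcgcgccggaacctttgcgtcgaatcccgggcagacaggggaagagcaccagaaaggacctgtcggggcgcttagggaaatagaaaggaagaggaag
Mrps18b: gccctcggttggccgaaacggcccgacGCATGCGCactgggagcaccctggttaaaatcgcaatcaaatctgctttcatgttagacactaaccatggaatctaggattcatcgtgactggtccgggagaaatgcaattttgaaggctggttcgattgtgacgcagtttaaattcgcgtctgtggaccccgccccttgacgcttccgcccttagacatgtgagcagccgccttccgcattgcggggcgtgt
Mrps18a: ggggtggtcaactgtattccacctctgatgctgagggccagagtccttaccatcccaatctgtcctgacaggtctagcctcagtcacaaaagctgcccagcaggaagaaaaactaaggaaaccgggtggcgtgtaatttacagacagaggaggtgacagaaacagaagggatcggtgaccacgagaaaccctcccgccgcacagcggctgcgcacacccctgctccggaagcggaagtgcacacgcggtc
Mrps22: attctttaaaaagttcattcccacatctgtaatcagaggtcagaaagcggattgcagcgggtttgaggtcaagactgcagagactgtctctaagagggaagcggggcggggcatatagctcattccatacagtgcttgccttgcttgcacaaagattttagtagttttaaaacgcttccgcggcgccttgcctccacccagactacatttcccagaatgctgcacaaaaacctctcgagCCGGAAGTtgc

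Start regions of 300 bases were given for 67 of the 76 members and were searched on both strands. The NRF1 letters stood in 8 members (11.9%) against 3.05% of 27025 genes, the ETS letters in 12 (17.9%) against 4.31%, and the YY1 letters AAGATGGCG in 8 (11.9%) against 1.64%. The E-box letters CACGTG stood in 5 members (7.46%) against 8.09%. The members' windows had a median of 58% G and C and of 17 CG pairs, against 52.4% and 6 for all genes. In 26 of the 67 members (38.8%) another gene started on the opposite strand within 1000 bases upstream, as in 12.3% of all genes. These shares describe the windows and were not tested.

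Cardiomyocyte markers were high in every group compared (7 of 7 with a mean above 5), and liver markers, looked at because the deposited extraction text names liver, had 0 of 5 above 5. The level of 9 probe sets for labelled control transcripts added at hybridization rose with stage, from 9.42 to 10.10 log2 on the E10.5 arrays to 10.75 to 11.17 at E19.5 and 11.86 to 12.28 in young adults, and was 10.97 to 11.34 in old adults. Array titles of the later stages, beginning with the female array of E16.5, carry a prefix that the earlier ones lack; no source says whether this marks a batch, and between E10.5 and E19.5 it cannot be told apart from stage.

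On the deposited scale the family stood highest in the youngest hearts, an order that did not hold under every scaling of the arrays, as the comparisons below show. To follow all members on 1 scale, each member's own mean over the 36 arrays was subtracted and the median over members taken on each array. The E10.5 arrays had medians of 0.68, 0.73 and 0.26 log2, and the stage mean went from 0.56 to 0.09 at E11.5 and to its lowest, -0.22, at E15.5. It stood at -0.01 at E19.5, 0.09 in young adults and 0.07 in old adults. Of the 76 members, 45 had their highest stage mean at E10.5, 13 in young adults and 9 in old adults, and 25 had their lowest embryonic mean at E15.5. Grouped by name, the values at E10.5 were 0.56 for Mrps and 0.54 for Mrpl genes, those at E19.5 -0.05 and 0.04 and those in young adults 0.00 and 0.11, and their difference was not tested. The span between a member's highest and lowest stage mean ran from 0.40 in Mrpl13 to 2.24 in Mrps22.

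Within stages the family median ran against the control level. At E19.5 the family medians were 0.14, 0.05 and -0.23 and the control levels 10.75, 10.87 and 11.17, and at E10.5, with the medians above, the control levels were 9.43, 9.42 and 10.10. Across the 30 embryonic arrays, family median and control level correlated with r = -0.81 (Pearson) and rho = -0.75 (Spearman), and with r = -0.75 without the 2 arrays farthest in control level. After the mean of each stage was removed, r was -0.87 and rho -0.86. Member by member, 70 of 76 had a negative r within stages (median -0.70), as had 63.3% of the 20685 probe sets above 5 (median -0.28). Mrpl39 (r = 0.87) and Mrpl52 (r = 0.73) had positive values, and those of Mrps12 (0.00) and Mrps24 (0.02) were near 0. These are descriptions of arrays that share 1 normalization, and as a cause of the stage differences the control level was not tested, but each comparison was refitted with it as a covariate and the values are given. The control levels did not overlap in any pair of stages compared below. In such a pair the covariate can be separated from stage only through the slope within stages. The adjusted values are extrapolated to that extent.

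**Figure D1:**
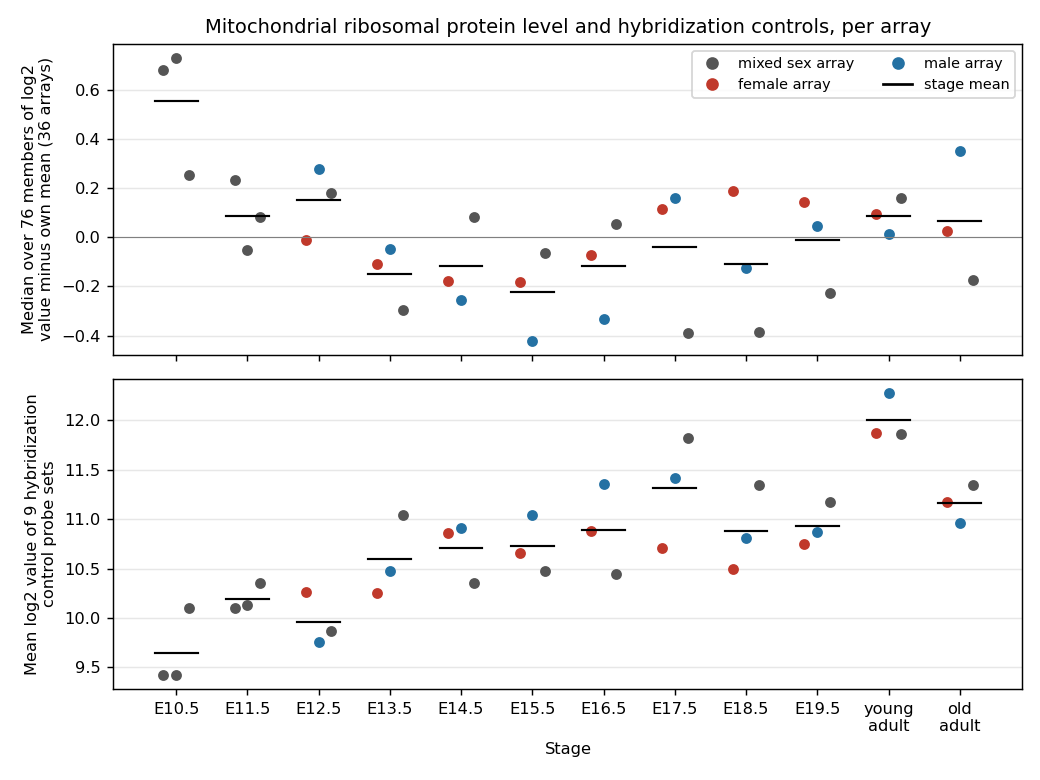
Upper panel: for each of the 36 arrays, the median over the 76 members of the log2 value minus the member's mean over all arrays, by stage. Lower panel: mean log2 value of the 9 hybridization control probe sets on the same arrays. Points are arrays coloured by sex label and bars are stage means. On this deposited scale the E10.5 stage mean is the highest in the upper panel (0.56) and the lowest in the lower one (9.65).

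**Figure D2:**
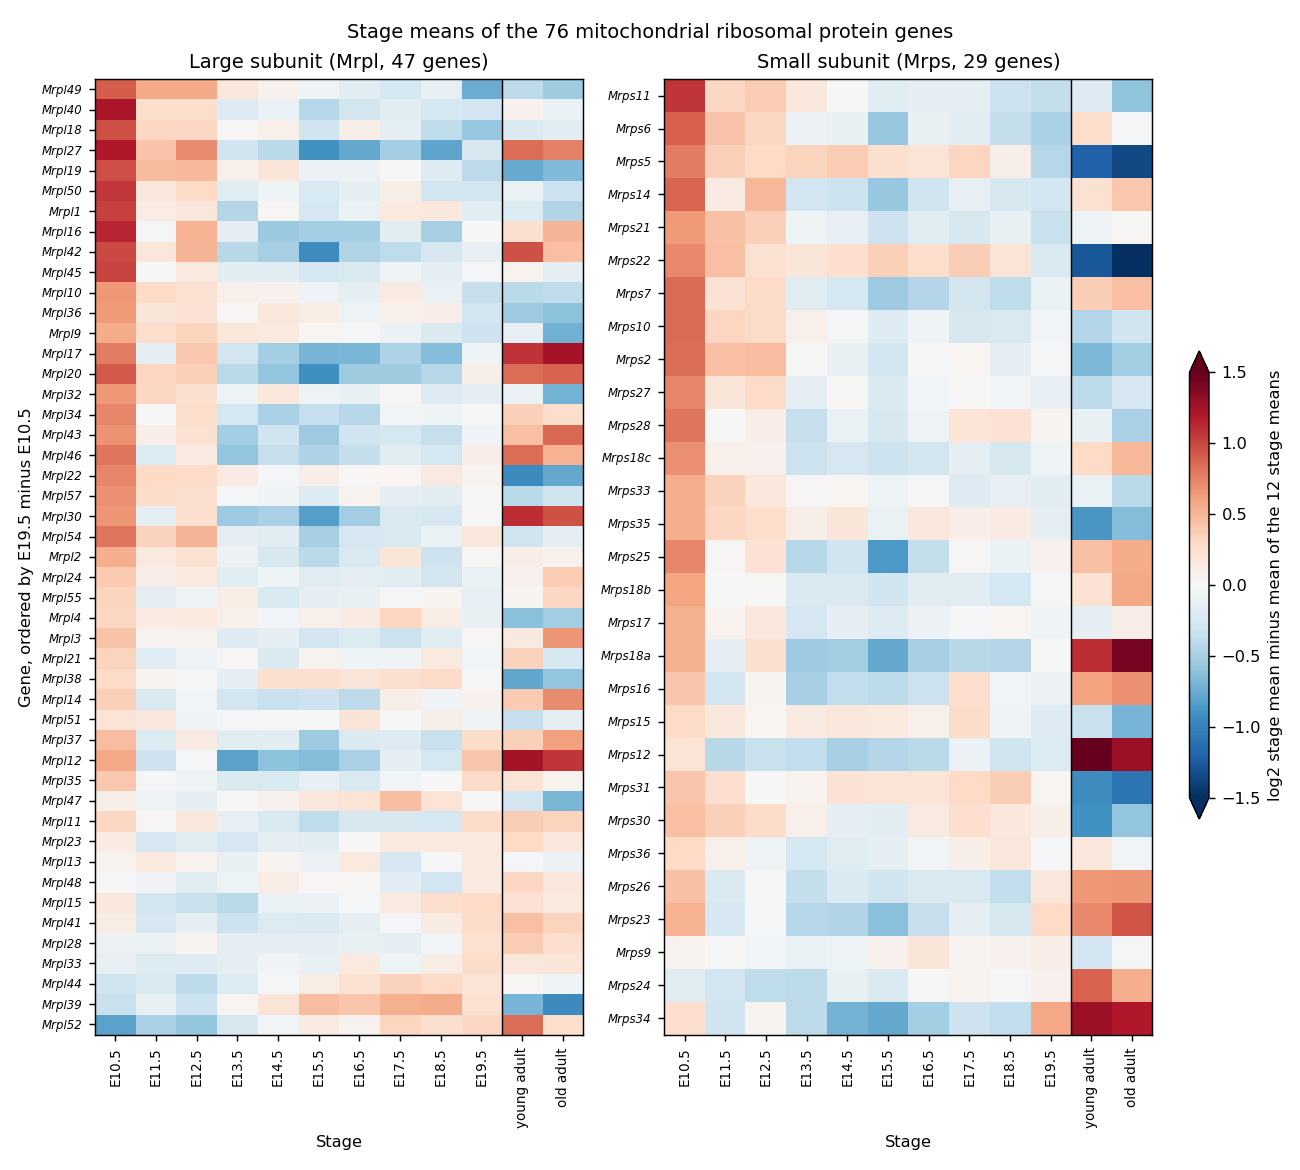
Stage means of the 47 Mrpl and 29 Mrps genes, each relative to the mean of its 12 stage means (log2, colour limits -1.5 and 1.5). Genes are ordered by E19.5 minus E10.5, and a line separates embryonic from adult stages. On this deposited scale, from which other scalings differ, E10.5 is the highest column for 45 genes; Mrps12, Mrpl12 and Mrps34 are highest in young adults, and Mrps22 and Mrps5 are lowest in old adults.

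The first comparison asked how the family changed over embryonic heart development. Between E10.5 and E19.5, 44 members fell and 5 rose at an adjusted p under 0.05 (limma, Benjamini-Hochberg over all probe sets), with a median member change of -0.63 log2 that turned to 0.0886 with the control level as a covariate. Of all probe sets 21.8% fell and 23.7% rose (median 0.15), and of the 20685 with a stage mean above 5, 39.0% fell and 23.3% rose (median -0.21). The largest fall was that of Mrpl49, a large subunit protein particular to mitochondria, which stood at 6.93, 6.70 and 6.41 at E10.5 and at 5.13, 5.08 and 4.85 at E19.5. Every E19.5 array lay below every E10.5 array (-1.66 ± 0.28, adjusted p = 1.36e-05, where ± is the SE of the fit with n = 3 arrays a stage, here and below). Mrpl40, whose human counterpart lies in the region deleted in DiGeorge syndrome, stood at 7.48, 7.75 and 7.30 and then at 6.01, 5.97 and 6.01. Its groups did not overlap either (-1.52 ± 0.18, adjusted p = 3.52e-08). Mrpl18 (-1.52 ± 0.25), Mrpl27 (-1.45 ± 0.33), Mrps11 (-1.43 ± 0.27) and Mrps6 (-1.39 ± 0.23) fell as well, without overlap, and these 4 have bacterial counterparts. The arrays of both groups did not overlap in 44 of the 49 members called, nor in 92.3% of all probe sets called, or 56% of all tested.

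The 5 members that rose were Mrpl52, Mrpl39, Mrpl44, Mrpl33 and Mrpl28, all of the large subunit and all without overlap. Mrpl52, particular to mitochondria, stood at 9.56, 9.50 and 9.93 at E10.5 and at 10.52, 10.81 and 11.01 at E19.5 (1.12 ± 0.15, adjusted p = 6.60e-07). Mrpl39 rose by 0.56 ± 0.16, Mrpl44, a protein of RNase III type, by 0.50 ± 0.13, Mrpl33 by 0.40 ± 0.15 and Mrpl28 by 0.31 ± 0.12. The call of Mrpl39 was lost without the E19.5 mixed array (adjusted p = 0.0630). That of Mrpl33 was lost without E10.5 mixed2, E10.5 mixed3, the E19.5 female or the E19.5 male array (adjusted p = 0.0654, 0.0808, 0.107 and 0.0748), and that of Mrpl28 without any of the E10.5 arrays or the E19.5 male array (adjusted p = 0.0962, 0.0541, 0.0612 and 0.158). Other probe sets of 3 of these genes fell, namely those of Mrpl39 (-0.96), Mrpl44 (-1.33 and -0.87) and Mrpl28 (-0.46). Among the members that fell, Mrpl34, Mrps10 and Mrps11 each had a dimmer probe set that rose, with 0.49, 0.58 and 0.57.

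Over all 10 embryonic stages, 39 members had a negative and 7 a positive slope (limma, adjusted p under 0.05), with a median of -0.0507 log2 per day, where 25.4% of all probe sets had a negative and 42.1% a positive slope. Of probe sets with a stage mean above 5, 45% had a negative and 28.8% a positive slope (median -0.0237). The steepest falls were those of Mrpl27 (-0.18 per day) and Mrpl49 (-0.15), and the steepest rises those of Mrpl52 (0.12) and Mrpl39 (0.09). Without E10.5, 19 slopes were negative and 8 positive, and the median was -0.0135. When only the E10.5 arrays mixed1 and mixed2 were left out, 5 members fell and 1 rose between E10.5 and E19.5, with a median of -0.30; the remaining E10.5 array is then assumed to vary like the other groups. Without E10.5 mixed2 alone 28 members fell, and without the E19.5 mixed array 27.

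The embryonic counts also moved with how the arrays were put on 1 scale. When each array was centred on the median of its brighter probe sets, 26 members fell and 11 rose (median -0.29), and after a second quantile normalization 21 and 14 (median -0.27). With the control level as a covariate, 3 fell and 7 rose, and the median was 0.0886. The median of all probe sets moved too, to 0.49, 0.04 and -0.01 in the same order, so the member median relative to it was -0.78 as deposited, -0.78 with centring, -0.31 with quantile normalization and 0.10 with the covariate. With centring 55.6% of all probe sets rose and 14.6% fell, with quantile normalization 17.8% and 18.4%, and with the covariate 8.31% and 10.2%. Of the 44 falls 18 changed sign with the covariate, 0 of them called the other way. The calls kept under all 3 alternatives were the falls of Mrpl40, Mrps6 and Mrpl10 and the rises of Mrpl52 and Mrpl33. With the covariate the change of Mrpl40 was -1.10 ± 0.21 and that of Mrps6 -1.01 ± 0.30.

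The next comparison set the young adult heart against the last embryonic stage. Of the 76 members 13 rose and 9 fell (median 0.16), where 13.6% of all probe sets rose and 15.5% fell (median 0.04). Of probe sets with a stage mean above 5, 16.5% rose and 29.3% fell (median -0.13). In none of the 22 members called did the arrays of both groups overlap, nor in 88.4% of all probe sets called (34.8% of all tested). The largest rise was that of Mrps12, the small subunit protein at the decoding centre, which stood at 5.76, 5.62 and 5.61 at E19.5 and at 7.23, 7.57 and 7.54 in young adults. The rise was 1.78 ± 0.18 log2, or 3.44-fold (adjusted p = 2.41e-09), and 1.81 ± 0.22 with the covariate. The stage means of Mrps12 from E11.5 to E19.5 lay between 5.37 and 5.77.

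Mrpl17, a large subunit protein with a bacterial counterpart, stood at 6.32, 6.25 and 5.58 at E19.5 and at 7.44, 6.75 and 7.42 in young adults (1.15 ± 0.24, adjusted p = 0.000323). The next largest rises were those of Mrps18a (1.11 ± 0.29), Mrpl30 (1.10 ± 0.29), Mrpl42 (1.09 ± 0.34) and Mrpl27 (1.08 ± 0.33). Without the E19.5 mixed array 8 members rose in place of 13, and the calls of Mrpl42 (adjusted p = 0.0878), Mrpl27 and Mrpl12 (adjusted p = 0.0502) were among those lost. That of Mrpl27 was lost without the E19.5 mixed or the young adult mixed array (adjusted p = 0.0535 and 0.0534).

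The largest fall was that of Mrps22 (-1.03 ± 0.18), followed by Mrpl22 (-1.01 ± 0.24), a protein lining the exit tunnel. Mrps31 (-0.98 ± 0.14), particular to mitochondria, stood at 7.09, 6.97 and 7.03 at E19.5 and at 5.99, 5.93 and 6.24 in young adults. Mrpl39 (-0.92 ± 0.16), whose stage mean had gone from 10.94 at E10.5 to 11.84 at E18.5, stood at 11.43, 11.30 and 11.77 and then at 10.62, 10.38 and 10.73. Mrps30 and Mrps5 (-0.79 ± 0.23) also fell, and the call of Mrps5 was lost without the E19.5 female, the young adult male or the young adult mixed array (adjusted p = 0.0851, 0.0514 and 0.0573).

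Of the 22 postnatal calls, 17 were kept under centring, repeated quantile normalization and the covariate. They were the rises of Mrpl12, Mrpl17, Mrpl20, Mrpl27, Mrpl30, Mrpl42, Mrpl46, Mrps6, Mrps12, Mrps18a, Mrps24 and Mrps26 and the falls of Mrpl38, Mrpl39, Mrps22, Mrps30 and Mrps31. With the covariate 43 members rose and 5 fell (median 0.62), with centring 24 and 8, and with quantile normalization 20 and 10. Of all probe sets 14.3% rose and 15.7% fell with the covariate, 22.2% and 10.8% with centring, and 15.7% and 15.4% with quantile normalization. Between the same groups cardiomyocyte markers fell in 4 of 7 (summed linear intensity 26072 to 30869 against 22447 to 24594), fibroblast markers fell in 4 and rose in 1 of 6, endothelial markers rose in 2 of 6, adipocyte markers in 3 of 4 (24.0 to 28.5 against 102 to 681) and skeletal muscle markers in 2 of 5, and leukocyte markers rose in 6 of 6; their part in the members' changes was not tested.

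Across the whole span from E10.5 to the young adult, 36 members fell and 7 rose (median -0.38, which was positive under the 3 other scalings), where 27.1% of all probe sets fell and 35.9% rose (median 0.19). Of the 20685 probe sets with a stage mean above 5, as all members have, 48.5% fell and 25.3% rose (median -0.41). Under the study's stringent limits (adjusted p under 1e-05, more than 2 log2, a stage mean above 5), 6.53% of all probe sets passed. Of the 76 members, each read from 1 probe set, 0 passed. A dimmer probe set of Mrpl19, not the one read, did pass (-2.84, adjusted p = 1.77e-08 in limma, stage means of 6.51 at most). Mrps22, a small subunit protein mutated in a human respiratory chain deficiency with cardiomyopathy, stood at 8.21, 8.09 and 7.95 at E10.5 and at 5.81, 5.82 and 6.65 in young adults. All adult arrays lay below all E10.5 arrays, a change of -1.99 ± 0.18 or 3.97-fold (adjusted p = 7.09e-11), and with the covariate it was -1.32 ± 0.33 (adjusted p = 0.00262). Mrps5, which has a bacterial counterpart, stood at 7.47, 7.47 and 7.31 and then at 5.85, 5.25 and 5.21 (-1.98 ± 0.23, adjusted p = 1.76e-08), without overlap. With the covariate its change was -0.82 ± 0.39 and not called (adjusted p = 0.138). The other probe sets of Mrps5, all dimmer, had changes between -0.39 and -0.06 and were not called, nor were they after E19.5. Mrpl19 (-1.71 ± 0.28), Mrpl22 (-1.69 ± 0.24), Mrps2 (-1.51 ± 0.25) and Mrps35 (-1.41 ± 0.21) followed, and with the covariate the values of Mrpl19, Mrpl22 and Mrps2 were 0.04, -0.15 and 0.36. Of the 36 falls 23 changed sign with the covariate, 4 of them called as rises. The falls kept under centring, quantile normalization and covariate were those of Mrps22 and Mrps31.

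The members that rose over the whole span were Mrpl52, Mrps12 (1.37 ± 0.18), Mrps24 (1.08 ± 0.11), Mrps34 (1.03 ± 0.27), Mrpl12 (0.68 ± 0.23), Mrpl28 (0.47 ± 0.12) and Mrpl44 (0.32 ± 0.13), all without overlap, as were 92% of all probe sets called (65.3% of all tested). Mrpl52, with the E10.5 values above, stood at 11.32, 11.29 and 11.31 in young adults (1.65 ± 0.15, adjusted p = 1.17e-10). With the covariate its change was 0.84 ± 0.25 (adjusted p = 0.0122), and 2 dimmer probe sets of Mrpl52 fell (-0.86 and -0.60). Mrps24, which has a bacterial counterpart, stood at 8.41, 8.31 and 8.40 at E10.5 and at 9.39, 9.34 and 9.62 in young adults. The call of Mrpl12 was lost without E10.5 mixed3 or the young adult male array (adjusted p = 0.125 and 0.0515), and that of Mrpl44 without E10.5 mixed1, E10.5 mixed2, the young adult male or the young adult mixed array (adjusted p = 0.0870, 0.127, 0.0651 and 0.0788). Of these 7 rises, all but that of Mrpl44 were kept under centring, quantile normalization and covariate.

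The sign of the family median was not kept: it was 0.15 with centring (25 rose and 22 fell), 0.0867 with quantile normalization (21 and 21) and 0.70 with the covariate (33 and 3). The median of all probe sets was then 0.71, 0.05 and -0.08, and relative to it the member median was -0.57 as deposited, -0.57 with centring, 0.03 with quantile normalization and 0.77 with the covariate. As deposited, the median of probe sets with a stage mean above 5 was -0.41, near that of the members. With centring 63.8% of all probe sets rose and 16.4% fell, with quantile normalization 26.6% and 24.4%, and with the covariate 11.2% and 12.8%. Without the E10.5 arrays mixed1 and mixed2 the member median was -0.17, with 9 rises and 19 falls. Mrpl9, Mrpl19, Mrpl44, Mrpl51, Mrpl52, Mrps10 and Mrps21 had other probe sets called in the opposite direction over this span. In Mrpl19 the probe set that rose (0.71) had stage means of 2.82 at most. A brighter one, with stage means of 6.51 at most, fell like the one read (-2.84), and another was not called (0.32). In Mrpl44 the 3 others had changes between -1.18 and -0.56.

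**Figure D3:**
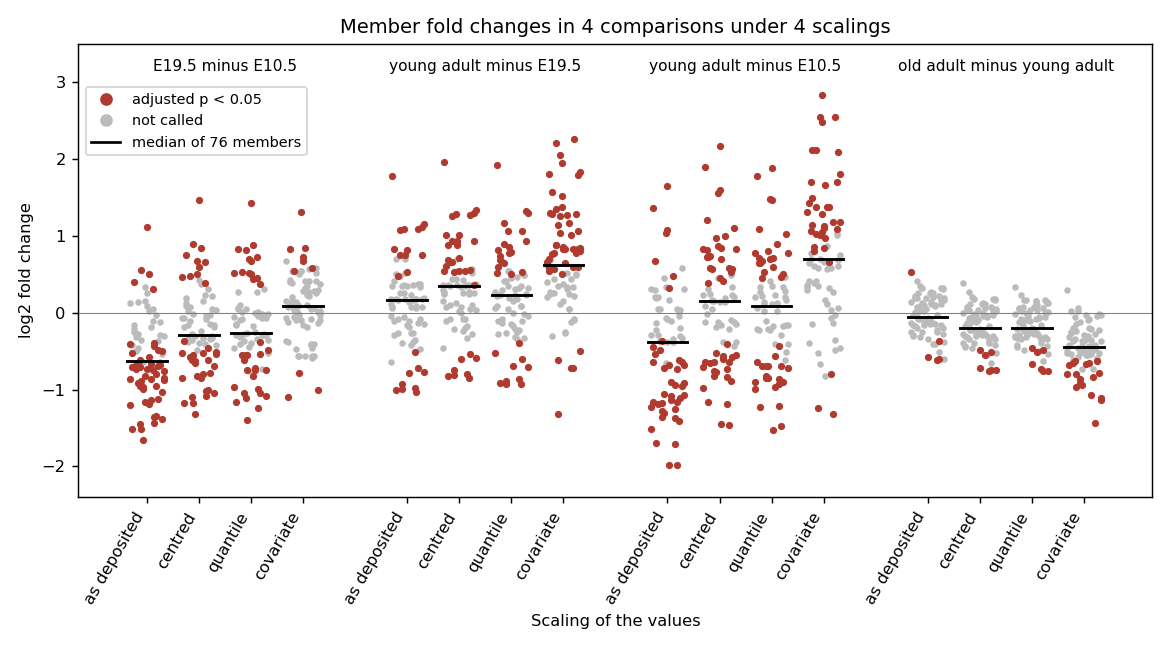
log2 fold changes of the 76 members in 4 comparisons, each fitted on the values as deposited, centred, quantile normalized again, or with the hybridization control level as covariate. Each point is a member, red where the adjusted p is under 0.05, and black bars are medians. The median for E19.5 minus E10.5 lies between -0.63 and 0.0886, and that for young adult minus E10.5 between -0.38 and 0.70.

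**Figure D4:**
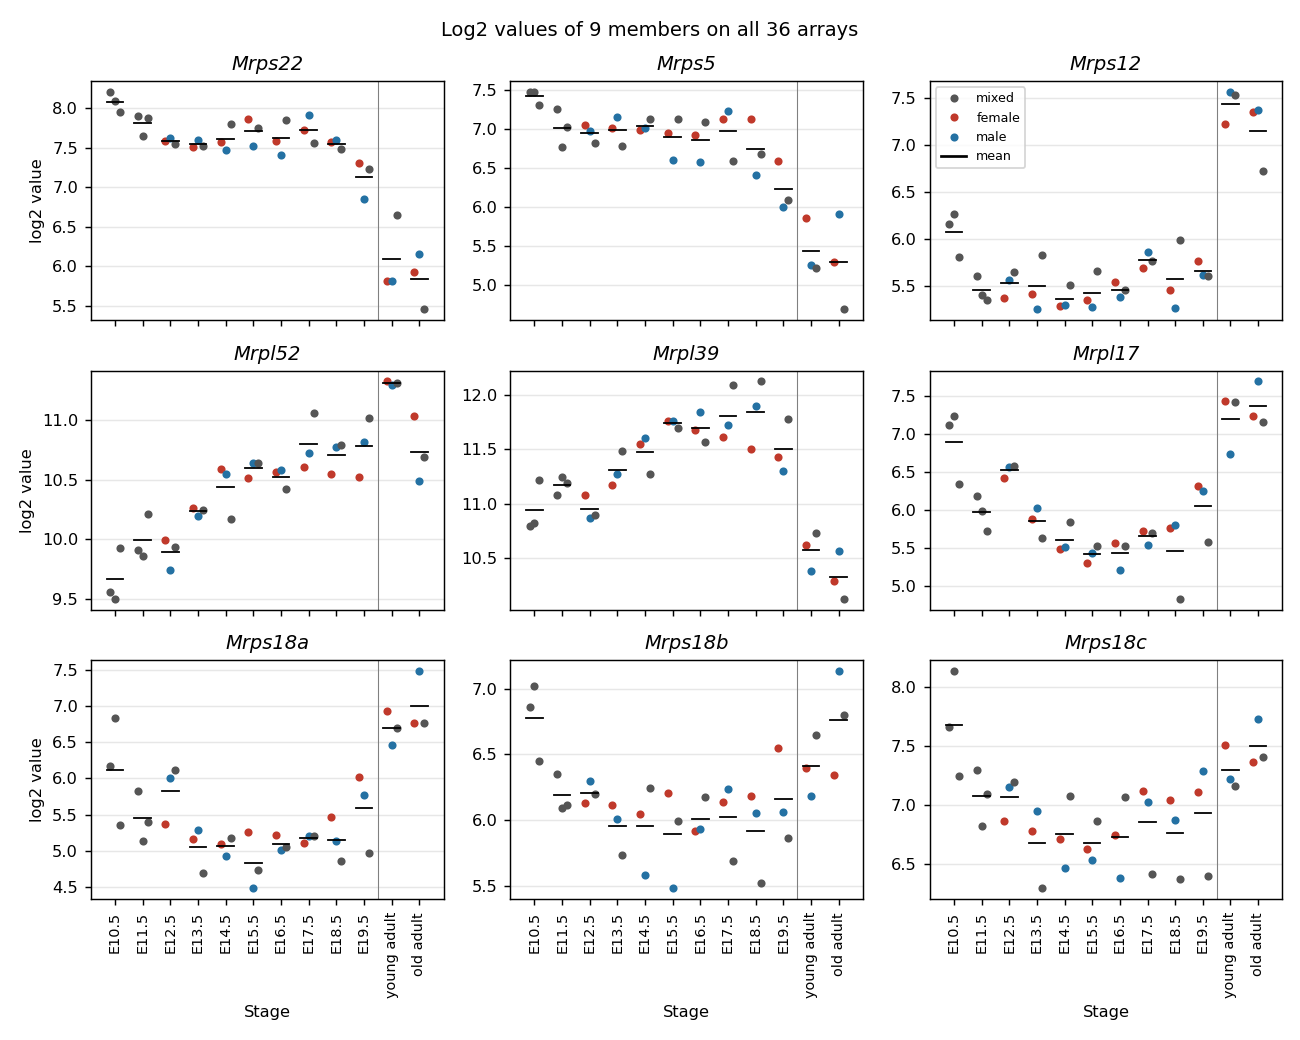
log2 values of 9 members on all 36 arrays, by stage, with stage means as bars and a line between embryonic and adult stages. Mrps22 and Mrps5 are lowest in adults, Mrps12 is highest in adults, Mrpl52 goes from a mean of 9.66 at E10.5 to 11.31 in young adults, and each Mrps18 gene has its lowest stage mean between E13.5 and E15.5.

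Markers of other cell types changed over the same span. Erythroid markers fell in 4 and rose in 1 of 6 from E10.5 to the young adult, with summed linear intensities of 18932 to 25098 against 97.4 to 170, and at E19.5 the sum was already 87.8 to 109. Leukocyte markers rose in 6 of 6 (82.7 to 92.7 against 1402 to 1715), endothelial markers in 4 of 6 (625 to 893 against 974 to 1088) and adipocyte markers in 4 of 4 (20.8 to 23.4 against 102 to 681). Fibroblast markers rose in 5 of 6 between E10.5 and E19.5 (4095 to 4648 against 13164 to 15594) and fell in 1; cardiomyocyte markers rose in 4 and fell in 1 of 7, with sums of 23861 to 31166 and 26072 to 30869, and skeletal muscle markers rose in 1 and fell in 3 of 5. From E10.5 to the young adult liver markers, all with means below 5, rose in 4 of 5, cardiomyocyte markers rose in 2 and fell in 2, fibroblast markers rose in 2 and fell in 1, and 1 skeletal muscle marker fell. The part of these shifts in the members' changes was not tested, and in whole hearts fewer cells of a type and less RNA per cell cannot be told apart.

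Mrps18a, Mrps18b and Mrps18c are paralogues that go back to a single bacterial protein, and Mrps18a belongs to the large subunit despite its name. Mrps18a stood at 6.17, 6.83 and 5.36 at E10.5, at 6.02, 5.78 and 4.97 at E19.5 and at 6.94, 6.46 and 6.70 in young adults. Its embryonic groups overlapped (-0.53 ± 0.29, adjusted p = 0.126), while the adult arrays lay above all E19.5 arrays (1.11 ± 0.29, adjusted p = 0.00332). Mrps18b stood at 6.86, 7.02 and 6.45, then at 6.55, 6.06 and 5.86 and at 6.40, 6.19 and 6.64, and fell over the embryonic stages with overlapping groups (-0.62 ± 0.22, adjusted p = 0.0230). Mrps18c stood at 7.66, 8.14 and 7.25, then at 7.11, 7.29 and 6.40 and at 7.51, 7.23 and 7.16, and fell likewise with overlap (-0.75 ± 0.24, adjusted p = 0.0135). After E19.5 Mrps18b gave 0.25 ± 0.22 and Mrps18c 0.36 ± 0.24, neither called on the deposited scale, while with the covariate both were (0.89 and 1.17) and with centring Mrps18c was (0.55). The embryonic call of Mrps18c was lost without E10.5 mixed2 or the E19.5 mixed array (adjusted p = 0.122 and 0.147), and that of Mrps18b without E10.5 mixed1, E10.5 mixed2, the E19.5 male or the E19.5 mixed array (adjusted p = 0.0685, 0.116, 0.0687 and 0.136). Without E10.5 mixed3 Mrps18a was called too (adjusted p = 0.0107), and with the covariate the changes of Mrps18b and Mrps18c were 0.14 and 0.22. In the stretches printed above, the NRF1 letters stand before Mrps18b, the ETS letters before Mrps18c, and neither before Mrps18a.

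Some members sit at functional sites of the ribosome, and these were picked after their values were seen. Of the stalk, which contacts translation factors, Mrpl10 gave -0.99 ± 0.21 from E10.5 to E19.5 and Mrpl12, mutated in human disease, -0.16 ± 0.23, and from E19.5 to the young adult they gave -0.06 ± 0.21 and 0.83 ± 0.23. Mrpl12 was lowest at E13.5, with 6.45, 6.58 and 6.66, against 8.08, 8.27 and 7.46 at E10.5 and 8.46, 8.75 and 8.63 in young adults. Around the exit tunnel, Mrpl22 (-1.69 ± 0.24), Mrpl45 (-0.96 ± 0.25), which ties the ribosome to the inner membrane, and Mrpl24 (-0.33 ± 0.16) are values of young adult minus E10.5, of which the first 2 were called. With the covariate Mrpl22 gave -0.15 (adjusted p = 0.832) and Mrpl45 0.69 (adjusted p = 0.181), and Mrpl45 was not called with centring or quantile normalization either (adjusted p = 0.0613 and 0.0623). Differences between members were not tested.

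Of the 10 members listed as human disease genes of mitochondrial translation, 5 fell from E10.5 to E19.5, namely Mrps14 (-1.17 ± 0.39), Mrps7 (-0.96 ± 0.19), Mrps22 (-0.96 ± 0.18), Mrps2 (-0.87 ± 0.25) and Mrpl3 (-0.41 ± 0.14), and Mrpl44 rose, where 21.8% of all probe sets fell and 23.7% rose. Of probe sets with a stage mean above 5, 39.0% fell and 23.3% rose. With the covariate none of the 6 members was called, and the values were 0.54 for Mrps14, 0.15 for Mrps2 and -0.07 for Mrpl3. The calls of Mrpl3 (adjusted p = 0.0611, 0.0589 and 0.0855) and Mrps14 (adjusted p = 0.0617, 0.0667 and 0.135) were lost without E10.5 mixed1, E10.5 mixed2 or the E19.5 mixed array. In young adults against E10.5, in a comparison that shares the E10.5 arrays, Mrps7 gave -0.48 ± 0.19 with overlapping groups and was called (adjusted p = 0.0321). This call was lost without E10.5 mixed1, E10.5 mixed2, the young adult female or the young adult male array (adjusted p = 0.153, 0.213, 0.0573 and 0.105), and its value was 0.03 with quantile normalization and 0.05 with centring. Mrps34 stood at 6.72, 6.82 and 6.34 at E10.5 and at 7.47, 7.53 and 7.99 in young adults (1.03 ± 0.27, adjusted p = 0.00170), without overlap. On the deposited scale the probe sets read for Mrps16 and Mrps23 were not called in any comparison. The exception was a fall of Mrps16 from E10.5 to E19.5 without E10.5 mixed3 (adjusted p = 0.0372). Under other scalings Mrps16 and Mrps23 were both called. From E10.5 to the young adult, Mrps16 went from 0.19 ± 0.27 as deposited to 0.72 with centring (adjusted p = 0.00578). It was 0.65 with quantile normalization (adjusted p = 0.0183) and 2.12 with the covariate (adjusted p = 2.95e-05). Mrps23 went from 0.20 ± 0.22 to 0.73 with centring (adjusted p = 0.00190) and 0.65 with quantile normalization (adjusted p = 0.00797). From E19.5 to the young adult, Mrps16 gave 0.69 ± 0.27 as deposited and was called under these 3 scalings. Mrps23 gave 0.42 ± 0.22 and was called under the first 2. As deposited, a dimmer probe set of Mrps23, with stage means of 4.75 at most, was called in both steps. It fell from E10.5 to E19.5 (-1.33) and rose from E19.5 to the young adult (1.05).

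Grouping by name puts the large subunit proteins Mrps18a and Mrps30 with Mrps. Between E10.5 and E19.5, 19 of 29 Mrps and 25 of 47 Mrpl genes fell, 0 and 5 rose, and the medians were -0.68 and -0.53. Of all probe sets 21.8% fell and 23.7% rose, and of those with a stage mean above 5, 39.0% and 23.3%. From E10.5 to the young adult 16 and 20 fell, 3 and 4 rose, and the medians were -0.64 and -0.33. Of all probe sets 27.1% fell and 35.9% rose, and of those with a stage mean above 5, 48.5% and 25.3%. These counts hold for the deposited scale, and those of the whole family moved with the scaling. The 46 members listed with a bacterial counterpart and the 30 others had medians of -0.67 and -0.58 over the embryonic stages and of -0.38 and -0.37 over the whole span. That list holds Mrps18c but not Mrps18a and Mrps18b, and it holds Mrpl55, which has no bacterial counterpart; with these 3 moved, a choice made after seeing the data, the medians were -0.65 and -0.45, and -0.38 and -0.37. These groups stand side by side as descriptions, and no difference between them was tested.

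Among the head-to-head pairs, Mrps11 and Mrpl46, parted by the 41 bases printed first, are both members. Mrps11 stood at 6.43, 6.29 and 5.80 at E10.5, at 5.09, 5.04 and 4.10 at E19.5 and at 5.17, 4.59 and 4.99 in young adults. Mrpl46 stood at 7.05, 7.14 and 6.38, then at 6.27, 6.29 and 5.90 and at 6.72, 6.75 and 7.24. Both fell over the embryonic stages (-1.43 ± 0.27 and -0.70 ± 0.22), and after E19.5 Mrpl46 rose (0.75 ± 0.22, adjusted p = 0.00873) while Mrps11 was not called (0.17 ± 0.27, adjusted p = 0.687). The embryonic fall of Mrpl46 was not called with centring (-0.36, adjusted p = 0.0880) or quantile normalization (-0.37, adjusted p = 0.125), and its sign turned with the covariate (0.03, adjusted p = 0.963), which also ended the call of Mrps11 (-0.43, adjusted p = 0.313). With the covariate Mrps11 was called after E19.5 (1.01, adjusted p = 0.00156). The difference between these changes was not tested.

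Sars2, across 146 bases from Mrps12 and below 5 on the log2 scale, had means of 3.92 at E19.5 and 3.48 in young adults and was not called (-0.44 ± 0.19, adjusted p = 0.0733). Helq, opposite Mrps18c, fell between the same stages (-0.87 ± 0.16, adjusted p = 6.20e-05). Mrpl40 and its neighbour Hira, a histone chaperone gene, both fell from E10.5 to E19.5 (-1.52 and -1.02), as did Mrpl18 and Tcp1, a chaperonin subunit gene (-1.52 and -1.62), and Mrpl32 and Psma2, a proteasome subunit gene (-0.80 and -1.74). Mrpl27 and Mrpl57 likewise fell with their neighbours Eme1 and Ska3. Mrpl49 fell (-1.66), and its neighbour Fau, which encodes a cytosolic ribosomal protein, was not called (-0.22 ± 0.17, adjusted p = 0.282). Mrpl43, Mrpl50, Mrps5, Mrps7, Mrps18c and Mrps27 also fell over this step without a call for the neighbour. Mrpl2 fell while its neighbour Klc4 rose (-0.53 and 0.53). Tmem63b and Ighmbp2 rose, and Mitd1 and Ncapd2 fell, beside members that were not called. Whether neighbours changed together was not tested.

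The rest of the mitochondrial translation machinery was read in the same fit, by lists drawn up from general knowledge, and the counts stand beside the 27.1% and 35.9% of all probe sets that fell and rose from E10.5 to the young adult. Of probe sets with a stage mean above 5, 48.5% fell and 25.3% rose. These counts hold for the deposited scale, and the lists were not counted under the other scalings. Of 6 mitoribosomal proteins with other names, 5 fell and 0 rose, led by Ptcd3 (-1.17) and Gadd45gip1 (-1.12). Of 14 translation factors, 10 fell and 1 rose (median -0.89). Lrpprc, which stabilizes mitochondrial messengers (-2.37), and the elongation factor Gfm1 (-1.83) were lowest, and Tufm, the elongation factor that brings tRNA to the ribosome, was the one that rose (1.13). Of 23 assembly and rRNA factors, 12 fell and 2 rose (median -0.60), with Tfb1m, an rRNA methyltransferase (-1.91), and Noa1, a GTPase (-1.23), lowest and Fastkd2 (0.63) and Mpv17l2 (0.59) rising. Of 22 tRNA synthetase and amidotransferase genes, 11 fell and 2 rose (median -0.35), with Gars, which serves the cytosol as well (-2.84), lowest and Wars2 (0.64) and Tars2 (0.38) rising. Of 10 genes for the expression of mitochondrial DNA, 6 fell and 0 rose, with the packaging factor Tfam (-1.86) and the single-strand binding protein Ssbp1 (-0.98) lowest.

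From E19.5 to the young adult the medians were -0.32 for translation factors, -0.19 for assembly factors and -0.21 for synthetases, against 0.16 for the members. Nuclear respiratory chain subunits, several of which join proteins made on mitoribosomes, had a median of 0.25, with 13 rising and 7 falling of 82, and cytosolic ribosomal proteins one of 0.39, with 21 rising and 6 falling of 59, where 13.6% of all probe sets rose and 15.5% fell. From E10.5 to E19.5, 29 respiratory chain genes rose and 4 fell (median 0.28), and 3 cytosolic ribosomal protein genes rose and 38 fell (median -0.56), where 23.7% of all probe sets rose and 21.8% fell. Of probe sets with a stage mean above 5, 23.3% rose and 39.0% fell from E10.5 to E19.5, and 16.5% rose and 29.3% fell after E19.5. These values hold for the deposited scale. Differences between these lists and the members were not tested.

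**Figure D5:**
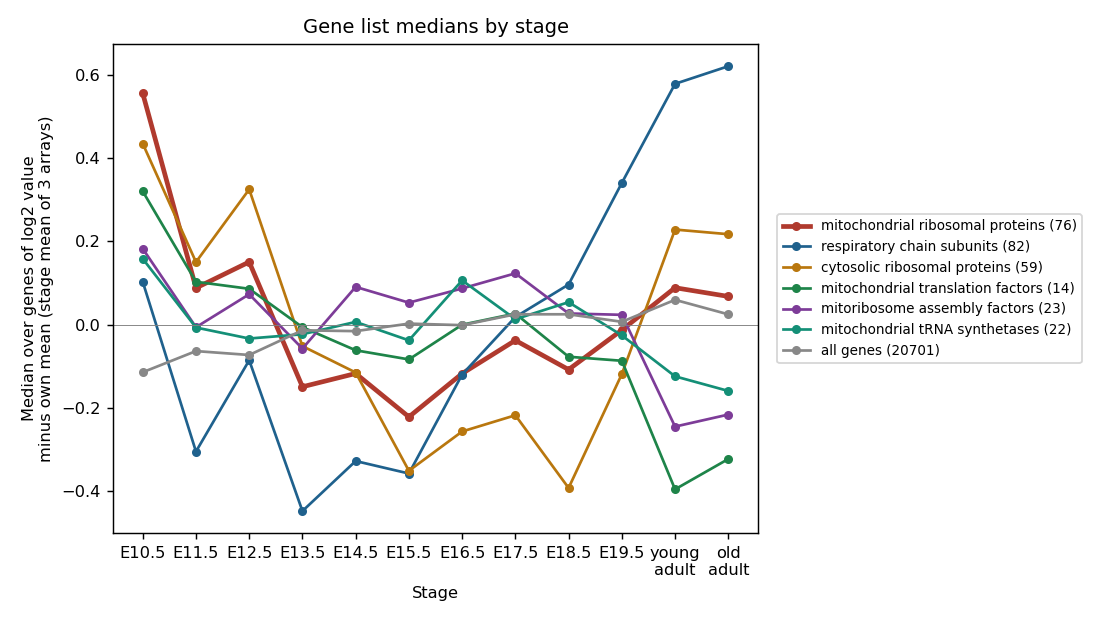
For each of 6 gene lists and for all genes, the median over genes of the log2 value minus the gene's mean over 36 arrays, averaged over the 3 arrays of a stage. The mitochondrial ribosomal proteins start at 0.56 at E10.5 and end at 0.07 in old adults; the respiratory chain subunits start at 0.10 and end at 0.62, and the translation factors start at 0.32 and end at -0.32.

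Between young and old adult hearts, 1 member rose and 4 fell (median -0.0509), where 3.83% of all probe sets rose and 3.13% fell. Of probe sets with a stage mean above 5, 7.08% rose and 3.44% fell. Mrpl32, a large subunit protein processed by a mitochondrial protease before it joins the ribosome, stood at 7.49, 7.99 and 8.09 in young and at 7.22, 7.48 and 7.03 in old adults (-0.62 ± 0.16, adjusted p = 0.0191). Mrpl3, the member that rose, stood at 6.37, 6.55 and 6.48 and then at 6.83, 7.24 and 6.91 (0.52 ± 0.14, adjusted p = 0.0207). Mrpl21 (-0.61 ± 0.16), Mrpl52 (-0.58 ± 0.15) and Mrps15 (-0.37 ± 0.11) fell, and the arrays of both groups did not overlap in any of the 5, nor in 83.2% of all probe sets called (19.8% of all tested). The call of Mrpl32 was lost without the young adult male, the young adult mixed or the old adult mixed array (adjusted p = 0.0786, 0.101 and 0.0918), and that of Mrpl3 without the young adult female or the old adult male array (adjusted p = 0.0509 and 0.132). Mrpl21 was lost without the young adult male, young adult mixed or old adult male array (adjusted p = 0.0560, 0.0947 and 0.140), Mrpl52 without the young adult mixed, old adult male or old adult mixed array (adjusted p = 0.0510, 0.122 and 0.0575), and Mrps15 without any array but the old adult male one (adjusted p = 0.0547, 0.0783, 0.111, 0.0574 and 0.199). With only the 6 adult arrays in the limma fit 0 members were called, 6 having an unadjusted p under 0.05. With the covariate 18 members fell and 0 rose (median -0.45), where 2.24% of all probe sets rose and 2.47% fell. The call of Mrpl32 was the one kept under covariate, centring and quantile normalization. Of the markers, 2 of 6 leukocyte (1402 to 1715 against 1557 to 2738) and 2 of 6 endothelial ones and 1 of 7 cardiomyocyte ones rose, and 2 of 6 fibroblast and 1 of 5 skeletal muscle ones fell; their part was not tested.

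Male and female hearts were compared in 9 pairs of arrays, at E13.5 and every later stage, and stage was fitted as a block. In this limma fit 0 of 76 members were called at an adjusted p under 0.05, against 0.0488% of all probe sets. At an unadjusted p under 0.05, 5 members were lower in males, namely Mrpl27 (-0.41 ± 0.10), Mrpl42 (-0.34 ± 0.11), Mrps21 (-0.23 ± 0.09), Mrpl18 (-0.21 ± 0.09) and Mrpl9 (-0.18 ± 0.08). Their adjusted p ranged from 0.343 to 0.640 in limma, and these genes were picked after their values were seen. With the E12.5 arrays added, 0 members were called higher and 0 lower, with an unadjusted p under 0.05 in 2.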

How the data were processed

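Whole hearts of OF1 mice at 12 stages, 3 arrays each, were profiled on a 1-colour Affymetrix whole-genome expression array. The authors deposited log2 intensities from robust multi-array averaging, that is background correction, quantile normalization over arrays and summary of the probes of a probe set; the submitters' processing notes name Affymetrix Expression Console, Partek 6.6 and RMA. The values were used as deposited. Quantile normalization is meant to remove a shift shared by most genes of an array, and the number of arrays limits the precision. In the deposited values the median of probe sets with a mean above 5 still differed between arrays. Relative to its mean over arrays it ran from 0.31 log2 on E10.5 mixed2 to -0.32 on the young adult mixed array. In the annotation 47 symbols were restored from gene IDs, and 6937 probe sets have no gene ID.

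Stages were compared in R 4.3.3 with limma 3.58.1, in 1 model of 12 stage means fitted to 36 arrays and 45101 probe sets (prior degrees of freedom 6.96), with two-sided tests, Benjamini-Hochberg adjustment over all probe sets and calls at an adjusted p under 0.05. The slope used the 30 embryonic arrays. The scripts were tested on simulated data. Members, lists and named genes were chosen with earlier results of these data known. Named were, per comparison, the 6 highest and 6 lowest called members, the Mrps18 paralogues, 10 disease genes, the 2 highest and 2 lowest called genes of each related list, and members with a probe set called in the opposite direction. Further members, head-to-head neighbours and the start regions printed were chosen after their values were seen.

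Alternatives were a second quantile normalization, centring on the median of probe sets with a mean above 5, a filter on low values before the model, a variance trend, the sex label as a block, the hybridization control level as a covariate, the 6 arrays of a comparison alone, the mean of all probe sets of a gene, stricter limits, and leaving out each array in turn. Leaving out E10.5 mixed1 and mixed2 together, and a corrected list of bacterial counterparts, were chosen after seeing the data. Start regions (250 bases before to 50 after the start) and gene coordinates come from RefSeq, GRCm38.p6.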

Additional observations from a re-analysis of the deposited data

How the results depend on the processing

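Values are members higher, members lower and the median member log2 change, to be set against 5, 44 and -0.63 for E19.5 minus E10.5, 13, 9 and 0.16 for young adult minus E19.5, 7, 36 and -0.38 for young adult minus E10.5, 1, 4 and -0.0509 for old minus young adult, and 7, 39 and -0.0507 per day for the slope. In that order, a second quantile normalization gave 14, 21 and -0.27, then 20, 10 and 0.23, then 21, 21 and 0.0867, then 0, 7 and -0.20, and 17, 19 and -0.0115. Centring gave 11, 26 and -0.29, then 24, 8 and 0.35, then 25, 22 and 0.15, then 0, 7 and -0.19, and 15, 21 and -0.0145. The control level as covariate gave 7, 3 and 0.0886, then 43, 5 and 0.62, then 33, 3 and 0.70, then 0, 18 and -0.45, and 18, 2 and 0.0302. Without E10.5 the slope had 8, 19 and -0.0135, and without E10.5 mixed1 and mixed2, a choice made after seeing the data, E19.5 minus E10.5 had 1, 5 and -0.30 and young adult minus E10.5 had 9, 19 and -0.17. With only the 6 arrays compared, 3 members rose to E19.5, and 0 rose and 0 fell in old adults. With the mean of all probe sets of a gene, 1 rose to E19.5, and 0 rose and 2 fell in old adults. At an adjusted p under 0.01, the counts of E19.5 minus E10.5 were 3 and 29, 8 members rose from E19.5 to the young adult, and 0 rose and 0 fell in old adults. With a log2 change above 1 the counts were 1 and 14, 6 and 2, 4 and 21, and 0 and 0. At an unadjusted p, 5 members were lower in males. The filter on low values and the variance trend kept each count within 1.5 times. Why the settings move these values was not tested.

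With 1 array left out, the ranges were 3 to 4, 27 to 49 and -0.78 to -0.47 for E19.5 minus E10.5, 8 to 14, 6 to 10 and 0.0557 to 0.22 for young adult minus E19.5, 5 to 7, 30 to 38 and -0.54 to -0.32 for young adult minus E10.5, and 0 to 1, 0 to 4 and -0.18 to 0.0847 for old minus young adult. The sex label as a replicate block gave 4 and 45, 13 and 9, 7 and 36, and 1 and 4, and ended 1 call among 90 values of named members; arrays with the same label deviated together only weakly (correlations of -0.0021 to 0.19 over probe sets), so the label was not taken to pair them.

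Some members changed sign. With the covariate, E19.5 minus E10.5 was 0.14 for Mrps18b, 0.22 for Mrps18c, 0.15 for Mrps2, 0.54 for Mrps14 and 0.0015 for Mrps10, and young adult minus E10.5 was 0.0367 for Mrpl19, 0.36 for Mrps2, 1.03 for Mrps18b, 1.38 for Mrps18c, 0.41 for Mrps7, 2.49 for Mrps14, 0.35 for Mrps10, 1.01 for Mrps21, 0.70 for Mrpl51 and 0.75 for Mrpl9. Old minus young adult was then -0.94 for Mrps14. With the mean of all probe sets, E19.5 minus E10.5 was -0.12 for Mrpl28, -0.44 for Mrpl44 and -0.20 for Mrpl39, and young adult minus E10.5 was -0.53 for Mrpl44 and 0.0546 for Mrpl51. For Mrps7, young adult minus E10.5 was 0.0281 with quantile normalization, 0.0459 with centring and 0.12 without E10.5 mixed1 and mixed2.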
